A study of Rattus norvegicus with 6 samples.

Results

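The semaphorin system was examined in neurons taken from the dorsal root ganglion (DRG) of the spontaneously hypertensive rat (SHR), after perirenal adipose tissue ablation (PRATA) and after a sham operation. Its members were all protein-coding genes of the deposited count table whose names mark them as semaphorins of classes 3 to 7, plexins A to D, neuropilins or collapsin response mediator proteins (CRMPs, the Crmp1 and Dpysl genes). The rule found 36 of the 25689 genes listed, namely 20 ligands, 11 receptors and 5 CRMP effectors, and all 36 were among the 14919 genes that passed the filter on low counts. By edgeR's quasi-likelihood fit over all tested genes, none of the 36 reached an adjusted p under 0.05, beside 0% of all 14919 genes in either direction. The smallest adjusted p of any gene in that edgeR fit was 0.156. The differences given below are therefore at an unadjusted p.

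Semaphorins are guidance cues that steer growing axons, mostly by repelling them. Those of class 3 are secreted and bind a neuropilin, which pairs with a plexin A or plexin D1 that carries the signal, whereas those of classes 4 to 7 sit in the membrane and for the most part bind plexins directly. Inside the growth cone, CRMPs bind tubulin and relay the signal of the repellent semaphorins to the microtubules. In sensory neurons of the DRG, these cues are best known for sorting and patterning axons during development and for limiting growth after injury.

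Each group held 3 samples from wild-type SHRs, collected 4 weeks after ablation of both perirenal fat pads or after the sham operation, and the ganglia were those of L1-L2. By their labels the rats were 6 to 8 weeks old, while the study's methods give 12 weeks at purchase. Neurons were released with collagenase and trypsin and parted from glia by the difference in adhesion over 5 h on a culture dish, so all samples share this dissociation. Nothing in the sources used here says how many rats entered a sample, and p-values measure the spread between these samples. Total counts lay between 5892967 and 15226952, and 3 counts, a floor that covers counting error only, came to between 0.207 and 0.468 CPM, the count of a gene relative to the TMM-scaled size of its library. PRATA replicate 3 and sham replicate 1 stood apart, in that 98.9% and 99.5% of their reads on the 2 main copies of the 7SL RNA gene fell on 1 copy, against 47.3% to 49.3% in the other 4 samples. This split does not follow the operation.

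The markers of sensory neurons were present in every sample and were higher on average after PRATA, with overlap between the groups. Of 16 such markers, which include the tubulin gene Tubb3 and the transcription factor gene Pou4f1, 16 had a positive log2 fold change and 5 an unadjusted p under 0.05. Of all genes tested, 8.19% were higher and 10.1% lower at that p. Their summed level was 12400 to 18500 CPM after PRATA and 8580 to 12900 CPM after the sham operation. Satellite glia markers went the other way, with 9 of 10 lower (1 at an unadjusted p under 0.05) and summed levels of 3530 to 6610 CPM against 4630 to 8820 CPM. All 10 Schwann cell myelin markers were higher (3 at an unadjusted p under 0.05), with sums of 878 to 1540 against 671 to 882 CPM. Of 11 fibroblast and connective tissue markers 9 were lower (1 at that p), with sums of 1160 to 3440 against 2060 to 3030 CPM. Thy1, which was higher (log2 fold change 0.29), weighed heavily in these sums, with 665 of the 1160 CPM in PRATA replicate 1. Of 11 endothelial markers 9 were higher (1 at an unadjusted p under 0.05; sums of 66.3 to 142 against 26.8 to 163 CPM), of 11 macrophage and leukocyte markers 9 were higher (none at that p; median log2 fold change 0.68; sums of 42.6 to 187 against 51.3 to 125 CPM), and of 10 pericyte and smooth muscle markers 6 were higher (sums of 203 to 287 against 150 to 334 CPM). The sums of every list, those of neurons and glia included, overlapped between the groups, and no matched marker of any list was at 0 in all samples. The part of these lists in the members' differences was not tested. In such bulk samples, fewer cells of a type and less RNA per cell cannot be told apart.

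**Figure D1:**
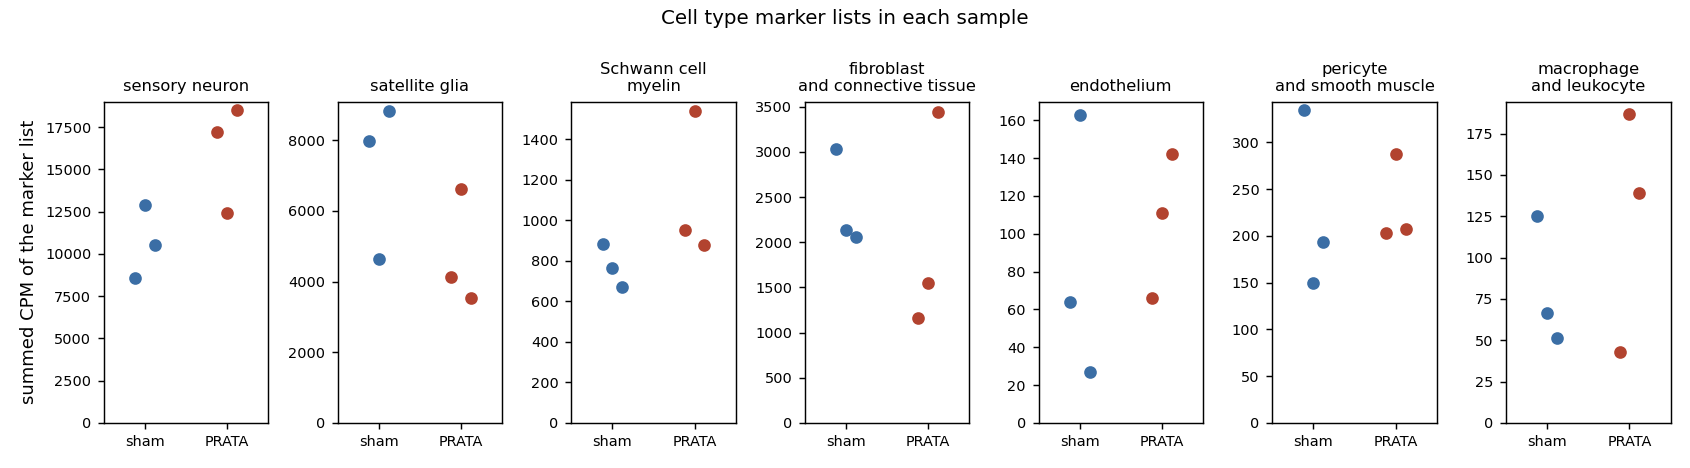
Summed TMM-normalized CPM of 7 lists of cell type markers, 1 point per sample, with sham in blue and PRATA in red and each axis starting at 0. The sensory neuron sum is highest in PRATA replicates 1 and 3 (17200 and 18500 CPM) and overlaps between the groups through PRATA replicate 2 and sham replicate 2 (12400 and 12900 CPM).

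Across the 36 members, 9 (25%) were higher after PRATA at an unadjusted p under 0.05, beside 8.19% of all genes tested, and 1 was lower, beside 10.1%. The 9 were the ligands Sema3f, Sema4f, Sema5a and Sema6c, the receptors Plxna2, Plxna3, Plxna4 and Nrp1, and the effector Crmp1, and the lower member was the ligand Sema3c. For 10 members (27.8%) the lowest PRATA sample exceeded the highest sham sample, beside 11.6% of all genes, and for 1 member (2.78%) below, beside 11.2%. In sign, 26 of 36 (72.2%) were higher, beside 52% of all genes, and the median log2 fold change was 0.30, beside 0.02. These members share the same 6 samples and are not independent of each other.
At an unadjusted p under 0.05, 9 members were higher (beside 7.55% of genes) and 1 lower (beside 10.7%) with DESeq2's size factors in edgeR, and 11 were higher (beside 5.34%) and 2 lower (beside 8.19%) without a filter. Of the 34 members with at least 10 counts in every sample, 9 were higher (beside 8.81%) and 1 lower (beside 11.4%). DESeq2 gave 10 higher (beside 7.48%) and 2 lower (beside 11.1%), and limma voom gave 15 higher (beside 15.6%) and 3 lower (beside 15.3%). Among protein-coding genes alone 8 were higher (beside 8.31%) and 2 lower (beside 11.3%). With the replicate number as a block 7 were higher (beside 4.16%) and 1 lower (beside 6.08%), with the 7SL group as a covariate 10 were higher (beside 7.4%) and 1 lower (beside 9.56%), and in the 4 samples of the larger 7SL group 6 were higher (beside 5.98%) and 1 lower (beside 6.9%). In these 4 samples no member reached an adjusted p under 0.05, beside 0.0608% of genes upward and 0.027% downward in edgeR.
With each sample left out in turn, the members were counted in the same way. Without PRATA replicate 1, 6 were higher (beside 3.47%) and 2 lower (beside 5.44%), without PRATA replicate 2, 10 were higher (beside 7.53%) and 3 lower (beside 7.86%), and without PRATA replicate 3, 7 were higher (beside 5.55%) and 1 lower (beside 7.5%). Without sham replicate 1, 11 were higher (beside 6.48%) and 1 lower (beside 8.91%), without sham replicate 2, 12 were higher (beside 13.4%) and 3 lower (beside 14.1%), and without sham replicate 3, 7 were higher (beside 3.76%) and 1 lower (beside 5.57%).
Under other tests some members passed the adjusted threshold. DESeq2 gave an adjusted p under 0.05 to 4 members upward (Plxna3, Plxna4, Sema4f, Sema5a), beside 1.57% of genes, and to Sema3c downward, beside 3.43%. With limma voom and sample quality weights, 6 members passed upward (Crmp1, Plxna2 and the 4 named for DESeq2), beside 3% of genes, and Sema3c passed downward, beside 4.87%. Without sham replicate 2, the shallowest library, edgeR's adjusted p was under 0.05 for Crmp1, Plxna4 and Sema4f upward, beside 1.05%, and for Sema3c downward, beside 3.62%.

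**Figure D2:**
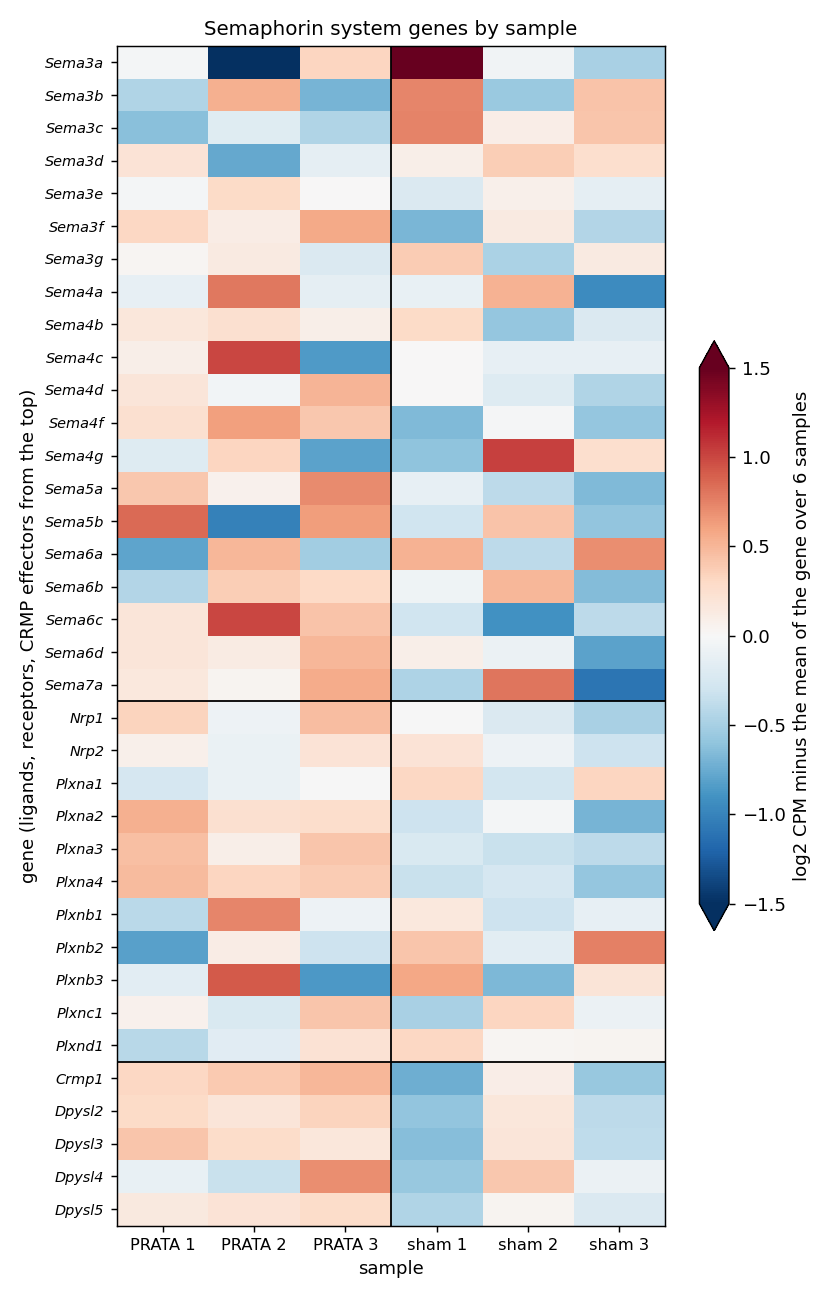
Heat map of the 36 members (rows, ligands above receptors above CRMP effectors) in the 6 samples (columns), coloured by log2 CPM minus the mean of the gene over the 6 samples. Plxna2, Plxna3 and Plxna4 are above their means in all 3 PRATA samples and at or below them in the sham samples, while Sema3c has the opposite pattern.

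For 3 of the members higher at an unadjusted p, RefSeq's promoter window began at the outer end of the annotated gene, and the 250 bases before that start are shown, because they let the reader compare the start regions of an effector, a receptor and a ligand that were higher together. They are written 5′ to 3′ on the strand of the gene, with each GC box (GGGCGG) and CCAAT box (CCAAT), on either strand, in capitals.
Crmp1, GRCr8 chr14:77780917-77781166, minus strand: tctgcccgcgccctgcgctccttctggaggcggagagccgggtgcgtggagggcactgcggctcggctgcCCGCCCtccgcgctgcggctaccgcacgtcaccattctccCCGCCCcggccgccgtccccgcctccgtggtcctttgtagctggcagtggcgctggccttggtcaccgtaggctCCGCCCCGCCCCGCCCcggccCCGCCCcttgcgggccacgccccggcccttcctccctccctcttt
Nrp1, GRCr8 chr19:73256307-73256556, plus strand: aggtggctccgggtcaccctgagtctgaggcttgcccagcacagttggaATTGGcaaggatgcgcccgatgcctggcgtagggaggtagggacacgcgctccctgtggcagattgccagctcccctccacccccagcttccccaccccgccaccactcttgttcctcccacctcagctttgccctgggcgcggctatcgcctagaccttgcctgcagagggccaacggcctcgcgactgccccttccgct
Sema4f, GRCr8 chr4:116995443-116995692, minus strand: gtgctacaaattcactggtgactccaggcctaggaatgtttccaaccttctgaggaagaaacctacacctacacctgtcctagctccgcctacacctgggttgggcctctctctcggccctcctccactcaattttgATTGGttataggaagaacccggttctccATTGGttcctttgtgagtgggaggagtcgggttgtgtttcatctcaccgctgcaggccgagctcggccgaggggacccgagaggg
These windows differ in composition. That of Crmp1 holds 6 GC boxes, no CCAAT box and 30 CpG dinucleotides at a GC content of 76.4%, that of Nrp1 holds 1 CCAAT box and 14 CpG at 66.4%, and that of Sema4f holds 2 CCAAT boxes and 9 CpG at 55.6%, beside a median GC content of 51.2% over all windows. Of the 36 members 27 had an entry, with 28 windows. A GC box was found in 18 of these (64.3%), beside 30.5% of all 33469 windows of this length, and a CCAAT box in 7 (25%), beside 34%. No filter on gene type or level was applied to the 33469 windows, whereas all members are protein-coding and passed the count filter. A match of letters is a description and not a site of binding.

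Of the 7 secreted semaphorins of class 3, 2 were higher and 5 lower, with a median log2 fold change of -0.41, whereas of the 13 membrane semaphorins of classes 4 to 7, 11 were higher and 2 lower, with a median of 0.35, beside 52% of all genes higher and 48% lower. The difference between these classes was not tested, and single samples moved it. In the 4 samples of the larger 7SL group, 4 class 3 genes were higher and 3 lower (median 0.089), without sham replicate 1 the class 3 median was -0.0013 with 3 higher and 4 lower, and without PRATA replicate 3 it was -0.18. The membrane semaphorins were 8 higher and 5 lower without PRATA replicate 2 and 9 higher and 4 lower without sham replicate 3. Over all 20 ligands the median was 0.30, and 4 (20%, beside 8.19% of all genes) were higher and 1 (5%, beside 10.1%) lower at an unadjusted p under 0.05. The median over all ligands was 0.041 without PRATA replicate 2 and 0.11 without sham replicate 3. The summed level of the ligands overlapped between the groups, at 729 to 909 CPM after PRATA and 698 to 958 CPM after the sham operation.

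Sema3c (ENSRNOG00000006526), a secreted ligand that signals through neuropilins and plexin D1 and is known for its part in vascular and cardiac outflow development, was the member that was lower. Its level was 75.8, 103 and 86.0 CPM in PRATA replicates 1 to 3 and 196, 126 and 156 CPM in sham replicates 1 to 3. All PRATA samples lay below all sham samples, with sham replicate 2 nearest to them. The log2 fold change was -0.85 (standard error 0.21, unadjusted p = 0.00383, adjusted p = 0.160, edgeR), and its unadjusted p stayed under 0.05 in all 15 alternative fits.
Sema3f (ENSRNOG00000017704), a secreted repellent that binds neuropilin 2, was at 13.9, 12.1 and 16.7 CPM after PRATA and 6.98, 12.3 and 8.31 CPM after the sham operation. Sham replicate 2 lay within the PRATA range. Its log2 fold change was 0.64 (standard error 0.27, unadjusted p = 0.0449, adjusted p = 0.263, edgeR). The unadjusted p stayed under 0.05 in 7 of the 15 fits and was highest in the 4 samples of the larger 7SL group (edgeR, adjusted p = 0.694). It was also lost with PRATA replicate 1 or 3 or sham replicate 1 or 3 left out, in DESeq2, with the replicate block and with the 7SL group as a covariate.
Sema3a, the best known repellent of sensory axons, had few counts in all samples but sham replicate 1 and was nearest to the floor in PRATA replicate 2. It had 11, 6 and 23 counts in the PRATA samples and 76, 9 and 11 counts in the sham samples, or 1.42, 0.478 and 1.82 against 5.25, 1.40 and 1.04 CPM. Only sham replicate 1 stood out, and the log2 fold change of -1.09 had a 95% confidence interval from -2.80 to 0.61. With this spread between the sham samples no difference was detectable.
Sema3b, which acts through neuropilins, was at 95.4, 189 and 80.9 CPM after PRATA and at 218, 89.0 and 176 CPM after the sham operation, with overlapping groups (log2 fold change -0.41, 95% confidence interval -1.33 to 0.52). Its 3 highest samples were PRATA replicate 2 and sham replicates 1 and 3. The other members of class 3, Sema3d, Sema3e and Sema3g, had log2 fold changes of -0.42, 0.19 and -0.07, each with overlapping groups.

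Sema4f (ENSRNOG00000006784), a membrane semaphorin found at synapses, was at 58.3, 75.3 and 65.3 CPM after PRATA and 31.0, 48.4 and 32.9 CPM after the sham operation. The groups did not overlap, with sham replicate 2 again nearest to the PRATA samples. The log2 fold change was 0.83 (standard error 0.22, unadjusted p = 0.00509, adjusted p = 0.168, edgeR), and the unadjusted p was under 0.05 in all 15 alternative fits. Of the other 5 class 4 genes, 4 were higher and 1 lower in sign, with log2 fold changes from -0.50 for Sema4g to 0.44 for Sema4d, the ligand of plexin B1. Sema4d was at 51.9, 44.5 and 65.3 CPM against 45.9, 40.1 and 33.5 CPM, where PRATA replicate 2 lay just below sham replicate 1 (unadjusted p = 0.0676). Sema4a, with a role in immune cells, was at 3.49, 6.61 and 3.48 CPM against 3.52, 5.46 and 1.98 CPM, with overlapping groups.
Sema5a (ENSRNOG00000011977), a membrane semaphorin with thrombospondin repeats that can attract or repel axons, was at 101, 80.2 and 125 CPM after PRATA and 70.6, 58.5 and 48.4 CPM after the sham operation. Every PRATA sample was above every sham sample. Its log2 fold change was 0.78 (standard error 0.22, unadjusted p = 0.00738, adjusted p = 0.171, edgeR), with an unadjusted p under 0.05 in all 15 alternative fits. Its relative Sema5b had 8 to 25 counts per sample and a log2 fold change of 0.47 with a 95% confidence interval from -0.90 to 1.84.
Sema6c (ENSRNOG00000021101), a membrane semaphorin that binds plexin A1, showed the largest positive log2 fold change of the members, 1.07 (standard error 0.32, unadjusted p = 0.00942, adjusted p = 0.175, edgeR). It was at 6.33, 11.2 and 7.51 CPM after PRATA and 4.56, 2.97 and 4.25 CPM after the sham operation, with no overlap, and rested on 19 to 140 counts per sample. With all 6 samples in edgeR it was the member past both an unadjusted p under 0.05 and a log2 fold change of 1, thresholds that 1.17% of genes passed upward and 3.23% downward. Its log2 fold change was 0.81 without PRATA replicate 2 and 0.92 without sham replicate 2, so that in these fits it did not pass both. Its unadjusted p was under 0.05 in all 15 alternative fits.
Sema6d, another class 6 ligand of plexin A1, was at 110, 106 and 137 CPM against 103, 91.2 and 55.7 CPM. Its groups did not overlap but PRATA replicate 2 and sham replicate 1 came close, and the log2 fold change was 0.50 (95% confidence interval -0.07 to 1.07). Sema6a, the ligand of plexins A2 and A4, was at 40.5, 98.6 and 48.6 CPM against 100, 53.1 and 113 CPM, with a log2 fold change of -0.51 (95% confidence interval -1.40 to 0.39). As for Sema3b, its highest samples were PRATA replicate 2 and sham replicates 1 and 3. Sema6b stayed between 1.89 and 4.21 CPM, with overlapping groups.
Sema7a, the semaphorin with a lipid anchor that binds integrins and plexin C1, was at 35.9, 33.1 and 47.4 CPM against 23.4, 56.3 and 15.1 CPM. Sham replicate 2 was the highest of the 6 samples and sham replicate 3 the lowest, so that the sham group enclosed the PRATA group.

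**Figure D3:**
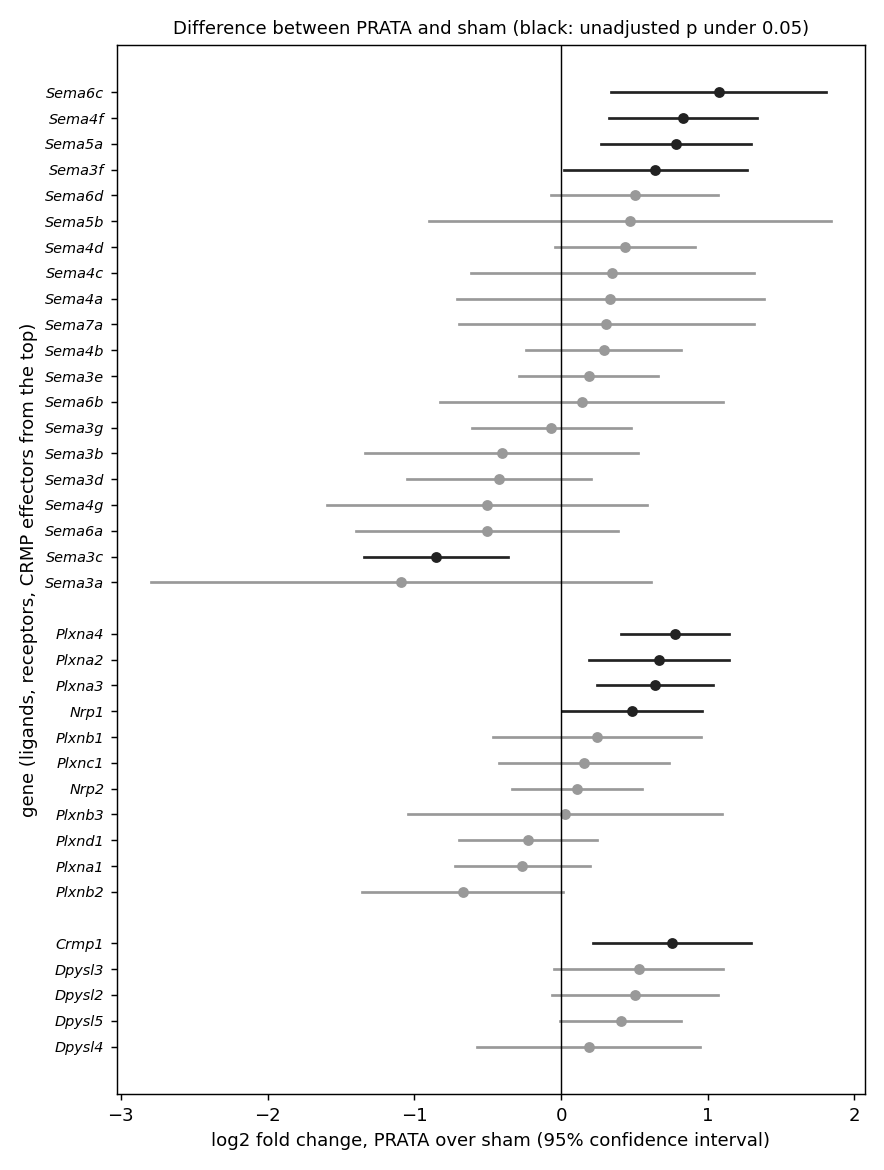
Log2 fold change of PRATA over sham for each of the 36 members from edgeR, with 95% confidence intervals, ordered within ligands, receptors and CRMP effectors from the top. The 10 members in black have an unadjusted p under 0.05, and they run from Sema3c at -0.85 to Sema6c at 1.07.

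Among the receptors, 3 of the 4 plexin A genes and 1 of the 2 neuropilins (4 of 11, 36.4%, beside 8.19% of all genes) were higher at an unadjusted p under 0.05, and Plxna1 had a negative log2 fold change. In the edgeR fit of all 6 samples, none of the 3 plexin B genes, nor Plxnc1 or Plxnd1, reached this p in either direction, while Plxnb2 did so in other fits. Differences between the receptor families were not tested. Over the 11 receptors the median log2 fold change was 0.16, and it was 0.35 without PRATA replicate 3, 0.31 without sham replicate 1 and 0.48 in the 4 samples of the larger 7SL group. Without PRATA replicate 1, 2 receptors (Plxna3 and Plxna4) instead of 4 were higher at an unadjusted p under 0.05, beside 3.47% of all genes. Their summed level was 911 to 1030 CPM after PRATA and 820 to 937 CPM after the sham operation.
Plxna4 (ENSRNOG00000013072), a signalling receptor for class 3 semaphorins and for Sema6a that is prominent in sensory neurons, had the smallest p of all members. It was at 100, 90.0 and 93.9 CPM after PRATA and 57.4, 60.6 and 48.3 CPM after the sham operation. The gap between the groups was wider than the range within either of them. Its log2 fold change was 0.77 (standard error 0.16, unadjusted p = 0.00122, adjusted p = 0.156, edgeR), with an unadjusted p of at most 0.00901 over the 15 alternative fits.
Plxna3 (ENSRNOG00000060464), the plexin A that mediates repulsion by Sema3f, was at 56.3, 43.9 and 55.1 CPM after PRATA and 35.1, 32.8 and 31.5 CPM after the sham operation. The sham samples lay close together, at 33.1 ± 1.80 CPM (SD, n = 3), and below all PRATA samples. The log2 fold change was 0.64 (standard error 0.17, unadjusted p = 0.00549, adjusted p = 0.168, edgeR), and its unadjusted p was under 0.05 in all 15 alternative fits.
Plxna2 (ENSRNOG00000007324), a receptor for Sema6a and, with neuropilin, for class 3 ligands, was at 143, 116 and 118 CPM after PRATA and 79.5, 96.9 and 60.8 CPM after the sham operation, with no overlap. Its log2 fold change was 0.67 (standard error 0.21, unadjusted p = 0.0122, adjusted p = 0.186, edgeR), and without PRATA replicate 1 it was 0.55 (unadjusted p = 0.0539). Plxna1 differed in sign from the other plexin A genes, at 70.5, 78.4 and 83.5 CPM against 104, 69.6 and 105 CPM, and its log2 fold change of -0.26 had a 95% confidence interval from -0.72 to 0.20.
Nrp1 (ENSRNOG00000010744), the neuropilin that binds Sema3a and vascular endothelial growth factor, was at 137, 103 and 150 CPM after PRATA and 108, 93.3 and 77.5 CPM after the sham operation. PRATA replicate 2 lay below sham replicate 1. The log2 fold change was 0.48 (standard error 0.21, unadjusted p = 0.0469, adjusted p = 0.267, edgeR), and the unadjusted p was under 0.05 in 8 of the 15 alternative fits, lost for example without PRATA replicate 1 or 3 or sham replicate 2 or 3. Nrp2, the neuropilin for Sema3f and Sema3c, was at 180, 160 and 197 CPM against 198, 162 and 138 CPM, with overlapping groups and a log2 fold change of 0.11, with a 95% confidence interval from -0.34 to 0.55.
Plxnb2, a plexin for class 4 ligands found in many cell types besides neurons, was at 39.9, 76.3 and 56.9 CPM after PRATA and 93.7, 63.2 and 119 CPM after the sham operation. PRATA replicate 2 and sham replicate 2 overlapped, and the log2 fold change of -0.67 (95% confidence interval -1.35 to 0.01, unadjusted p = 0.0539) passed an unadjusted p under 0.05 in DESeq2, voom, without a filter, in protein-coding genes alone and without PRATA replicate 2 or sham replicate 2. Plxnb1, the receptor of Sema4d, and Plxnb3, that of Sema5a, had overlapping groups, with log2 fold changes of 0.24 and 0.03 and 95% confidence intervals from -0.47 to 0.95 and from -1.05 to 1.10. Plxnd1, the receptor by which Sema3e acts without a neuropilin, was at 96.4, 114 and 150 CPM against 159, 131 and 132 CPM, and Plxnc1 at 77.1, 63.0 and 98.3 CPM against 52.6, 92.1 and 69.3 CPM, both with overlapping groups.

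All 5 CRMP genes had a positive log2 fold change, with a median of 0.51, and Crmp1 alone (1 of 5, 20%, beside 8.19% of all genes) had an unadjusted p under 0.05. Their summed level was 1850, 1730 and 1880 CPM after PRATA and 995, 1710 and 1180 CPM after the sham operation, so that sham replicate 2 came close to the PRATA samples while sham replicates 1 and 3 lay far below them. Without sham replicate 2, 4 of the 5 were higher at an unadjusted p under 0.05, beside 13.4% of all genes, and the median log2 fold change was 0.76. In the 4 samples of the larger 7SL group none did, beside 5.98%.
Crmp1 (ENSRNOG00000004781), which relays Sema3a signals after phosphorylation, was at 92.3, 97.6 and 105 CPM after PRATA and 44.8, 80.1 and 50.3 CPM after the sham operation. The PRATA samples lay close together at 98.2 ± 6.26 CPM (SD, n = 3), above all sham samples. Its log2 fold change was 0.75 (standard error 0.23, unadjusted p = 0.0120, adjusted p = 0.185, edgeR), without sham replicate 2 it was 1.05 (adjusted p = 0.0291, edgeR), and in the 4 samples of the larger 7SL group it was 0.54 (unadjusted p = 0.0787).
Dpysl2, the gene of CRMP2 and the CRMP best known for promoting axon formation, was at 867, 808 and 899 CPM after PRATA and 471, 801 and 542 CPM after the sham operation. The groups did not overlap, but PRATA replicate 2 and sham replicate 2 differed little, and the log2 fold change was 0.51 (95% confidence interval -0.06 to 1.07, unadjusted p = 0.0736). Dpysl5, the gene of CRMP5, was at 159, 166 and 173 CPM against 105, 148 and 123 CPM, again without overlap (log2 fold change 0.41, unadjusted p = 0.0520). Dpysl3, whose product CRMP4 bundles actin, was at 627, 571 and 529 CPM against 302, 534 and 361 CPM, where PRATA replicate 3 lay just below sham replicate 2. Dpysl4 had its highest level, 177 CPM, in PRATA replicate 3 and its next, 144 CPM, in sham replicate 2, and its log2 fold change of 0.19 had a 95% confidence interval from -0.57 to 0.94.

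**Figure D4:**
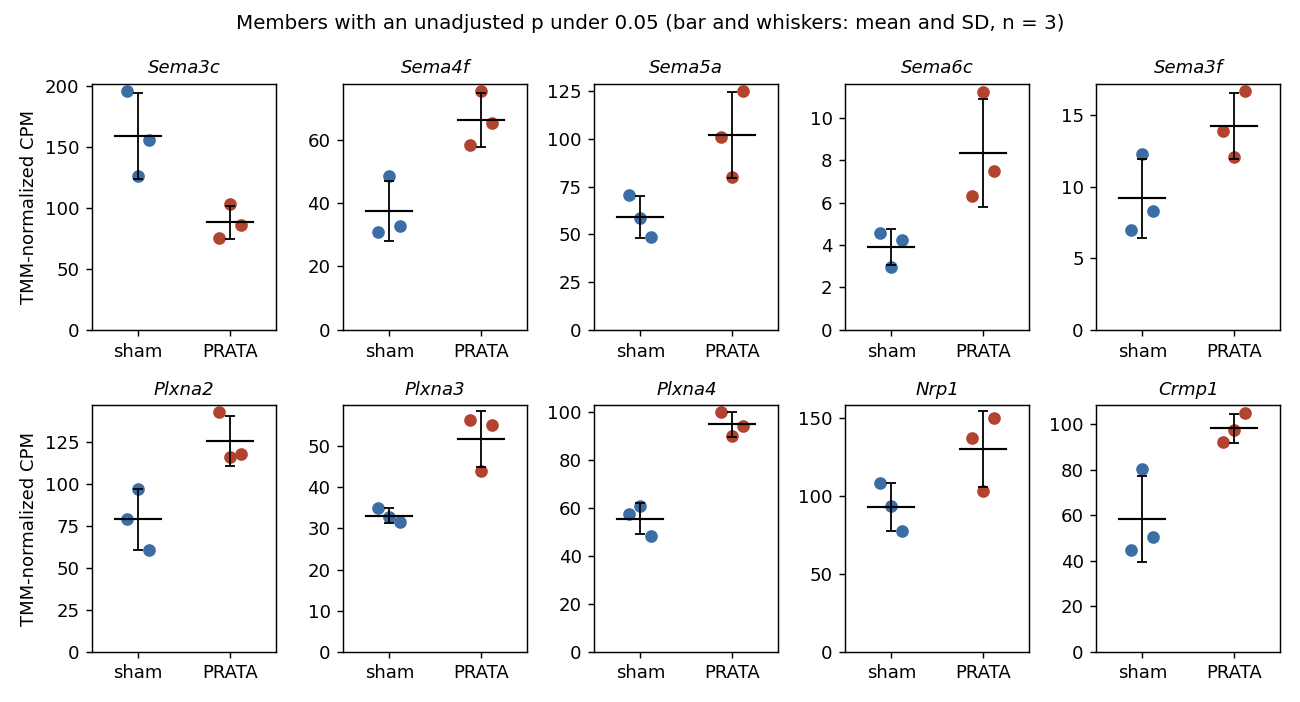
TMM-normalized CPM of the 10 members with an unadjusted p under 0.05, 1 point per sample, with the mean as a bar and the SD as whiskers (n = 3 per group) and axes starting at 0. The groups are apart for all but Sema3f and Nrp1, and the sham sample nearest to the PRATA samples is replicate 2 for Sema3c, Sema4f, Crmp1, Plxna2 and Plxna4 and replicate 1 for Sema5a, Sema6c and Plxna3.

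The members were also set beside the sensory neuron markers in each sample. The mean log2 CPM of the 16 markers was 8.79, 8.42 and 8.89 in PRATA replicates 1 to 3 and 7.88, 8.44 and 8.12 in sham replicates 1 to 3. Thus PRATA replicate 2 and sham replicate 2 had nearly the same mean. Single markers differed between these replicates in both directions. In PRATA replicate 2 and sham replicate 2, in this order, Pou4f1 was at 47.6 and 24 CPM and Tubb3 at 1730 and 1130 CPM. P2rx3 was at 311 and 551 CPM and Nefl at 1770 and 2340 CPM, and the satellite glia sums were 6610 and 4630 CPM. An equal mean is therefore not an equal make-up of cells. These replicates were picked out after the values were seen and carry no test. In PRATA replicate 2 and sham replicate 2, in this order, Dpysl2 was at 808 and 801 CPM and Sema3c at 103 and 126 CPM. Crmp1 was at 97.6 and 80.1 CPM, Plxna3 at 43.9 and 32.8 CPM, Plxna4 at 90.0 and 60.6 CPM, and Sema4f at 75.3 and 48.4 CPM. Sema5a was at 80.2 and 58.5 CPM, Sema6c at 11.2 and 2.97 CPM, and Plxna2 at 116 and 96.9 CPM. Nrp1 was at 103 and 93.3 CPM, while Sema3f, at 12.1 and 12.3 CPM, was not higher.
After the marker mean was subtracted in each sample, no member was higher in all PRATA samples than in all sham samples, beside 0.523% of all genes, and 5 were lower in all of them (Sema3a, Sema3c, Sema3d, Plxnc1 and Plxnd1; 13.9%), beside 31%. Of the 9 members higher at an unadjusted p, 8 had a positive difference, from 0.08 for Plxna3 to 0.50 for Sema6c, and Nrp1 had -0.07. These 9 were picked for their differences in these same data. Whether a difference stayed positive followed from its size before the subtraction. It carries no test, and the share of all genes with a positive difference was not counted. The difference was 0.23 for Plxna4, 0.29 for Sema4f, 0.24 for Crmp1 and -0.011 for Dpysl2. For Sema3c it was -1.39. The subtraction moves every gene by the same amount, since the markers themselves were higher after PRATA, and the part of the neuron share in the members' differences was not tested.

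**Figure D5:**
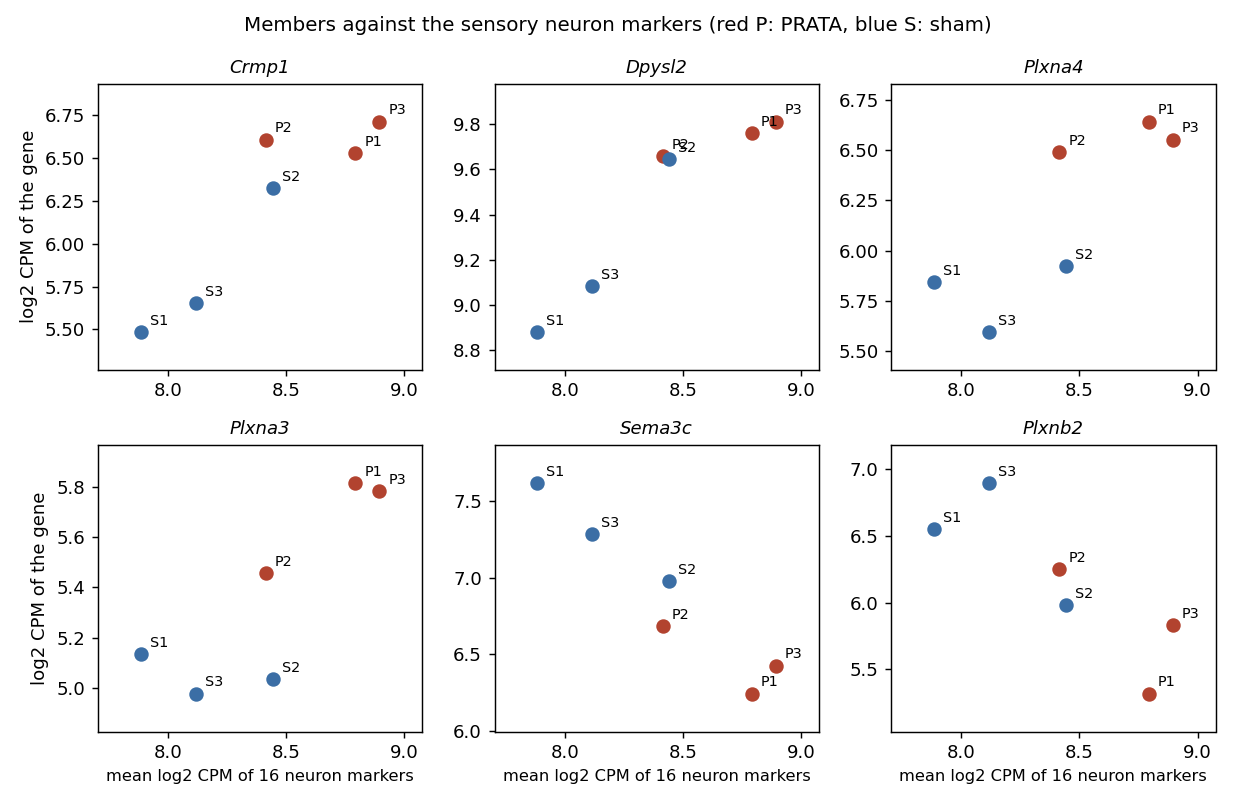
Log2 CPM of 6 members (vertical axes) against the mean log2 CPM of 16 sensory neuron markers (horizontal axes) in the 6 samples, with PRATA in red (P1 to P3) and sham in blue (S1 to S3). P2 and S2 have nearly equal marker means (8.42 and 8.44), while single markers differ between them in both directions. After subtraction of the marker mean the difference between the groups is 0.08 for Plxna3, 0.23 for Plxna4 and -0.011 for Dpysl2, each with overlapping groups.

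The glial marker sum was highest in PRATA replicate 2 and sham replicates 1 and 3, and the same 3 samples were the highest for Sema3b, Sema3g, Sema6a, Plxnb2 and Plxnb3, which is 5 of 36 members (13.9%), beside 9.56% of all genes. For 4 of 36 members (Plxnc1, Sema3f, Sema5b and Sema7a) the 3 highest samples were those of the neuron markers, beside 13.4% of all genes. Both shares are near those of all genes. This grouping was made after the values were seen and is a description.

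Other genes of the pathway were taken from a list of 61 co-receptors, GTPases with their regulators, kinases and cytoskeletal targets, of which 59 were tested and 2 (Trem2 and Rhod) missed the filter. At an unadjusted p under 0.05, 8 were higher (13.6%, beside 8.19% of all genes) and 5 lower (8.47%, beside 10.1%). The median log2 fold change was -0.03, and edgeR gave none of them an adjusted p under 0.05, beside 0% of all genes. By part of the list, 2 of 17 co-receptors and partners, 4 of 20 GTPases and regulators and 2 of 22 kinases and targets were higher, and 2, 2 and 1 were lower.
Rap1gap, which switches off the GTPase Rap1, was at 97.8, 85.7 and 83.0 CPM after PRATA and 60.9, 46.2 and 52.9 CPM after the sham operation (log2 fold change 0.73, unadjusted p = 0.00249). Cntn2, an axonal adhesion molecule that takes part in the response to Sema3a, had a log2 fold change of 0.63, the receptor tyrosine kinase Mst1r, a partner of plexin B1, 0.79, and Arhgef11, which couples plexin B to RhoA, 0.43, and for all 4 genes the groups did not overlap. Of the lower genes, Rras2, a relative of the R-Ras on which the plexin GAP domain acts, was at 12.9, 14.0 and 14.9 CPM after PRATA and 22.8, 24.8 and 27.5 CPM after the sham operation (log2 fold change -0.84, unadjusted p = 0.00129). Met, the receptor tyrosine kinase that associates with plexin B1, had a log2 fold change of -1.10, the integrin gene Itga1, a partner of Sema7a, -1.16, and Rock2, the kinase downstream of RhoA, -0.81. Met and Rock2 had no overlap between the groups, while Itga1 did. Without PRATA replicate 1, 1 gene of this list instead of 8 was higher at an unadjusted p under 0.05 (1.67%, beside 3.47% of all genes), and without sham replicate 3 it was also 1 (1.69%, beside 3.76%). Without PRATA replicate 3, 3 were higher (5%, beside 5.55%), and without sham replicate 1, 4 were higher (6.67%, beside 6.48%). Without sham replicate 2, 13 were higher (22%, beside 13.4%) and 12 lower (20.3%, beside 14.1%), and without sham replicate 3, 3 were lower (5.08%, beside 5.57%). With the replicate number as a block, 3 were higher (5.08%, beside 4.16%) and 3 lower (5.08%, beside 6.08%).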

How the data were processed

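The deposited table holds whole-number counts per gene for 6 samples, which the authors titled raw counts. Whether these are counted reads or rounded RSEM estimates could not be settled from the sources used here. The submitters' processing notes name STAR 2.7.3a, RSEM and DESeq2 without their roles, whereas the methods describe HISAT2, StringTie and FPKM values from Cuffdiff. The counting settings, strand setting, genome build and annotation are not given in the sources used here, so reads of overlapping genes may be shared. The table gives no positions or transcript lengths, so no difference in level between genes is reported. Levels were ranked within a class only to choose members to name, and summed levels rest most on the genes with the most CPM.

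Genes were kept by filterByExpr (minimum count 10, minimum total 15), scaled by TMM (factors 0.953 to 1.10) and tested, PRATA against sham, with edgeR 4.0.16 in R 4.3.3 by its two-sided quasi-likelihood test, and p was adjusted by Benjamini and Hochberg across 14919 genes. CPM values use the library size of the tested genes. Standard errors were derived from the F statistic. Sets were described by counts and medians, without a set test. An exact permutation test of 3 samples against 3 cannot give a p under 0.10. Total counts of 5892967 to 15226952 set the precision of low genes.

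Members with an unadjusted p under 0.05 or groups without overlap, those highest or lowest in their class and their known partners were named, and the remaining members were added. Of the other pathway genes, up to 4 in each direction with the smallest p were named. Members and lists were chosen with earlier results of these data known. Alternatives were DESeq2 1.42.0, limma 3.58.1 voom with quality weights, other scaling and filters, protein-coding genes alone, a replicate block, each sample left out, the 7SL copy group (a share over 90% on 1 copy) as a covariate or its larger part alone, and subtraction of the neuron marker mean. The fits were tested on simulated data. Promoter sequences are from RefSeq (GRCr8). Figures were drawn with matplotlib 3.10.9.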

Additional observations from a re-analysis of the deposited data

How the results depend on the processing

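All 10 members with an unadjusted p under 0.05 kept their direction in each of the 15 alternative fits. Of the other 26 members 15 kept theirs in every fit that held them. Among these, Sema3a and Sema5b missed the filter of at least 10 counts in every sample and so were absent from that fit. Counts are of genes at an unadjusted p under 0.05 unless an adjusted p is named. With limma voom and quality weights, 15 members were higher and 3 lower (ligands 7 and 2, 1 receptor lower, 4 CRMP genes higher). In that fit 13 other pathway genes were lower (22%), beside 15.3% of all genes lower and 15.6% higher. At an adjusted p under 0.05, voom gave 6 members higher (2 ligands, 3 receptors, 1 CRMP gene) and 1 ligand lower, with 3 other pathway genes higher and 4 lower. Of all genes, 3% were higher and 4.87% lower at that threshold. DESeq2 gave 4 members higher (2 ligands, 2 receptors) and 1 ligand lower at an adjusted p under 0.05, with 1 other pathway gene higher and 4 lower. Of all genes, 1.57% were higher and 3.43% lower at that threshold. At an unadjusted p DESeq2 gave 3 CRMP genes higher, beside 7.48% of all genes. It gave 1 receptor, 2 members in all and 8 other pathway genes (13.6%) lower, beside 11.1%. Without a filter, 3 CRMP genes were higher and 1 receptor and 2 members in all lower, beside 5.34% of all genes higher and 8.19% lower. In protein-coding genes alone, 1 receptor, 2 members in all and 8 other pathway genes (13.6%) were lower, beside 11.3% of such genes. The 7SL covariate gave 2 CRMP genes higher, beside 7.4% of all genes. In the 4 samples of the larger 7SL group, 0 CRMP genes were higher, and 2 other pathway genes were higher (3.33%) and 3 lower (5%). Of all genes, 5.98% were higher and 6.9% lower in these samples, and the receptor median log2 fold change was 0.48. With the neuron marker mean subtracted, the medians were -0.31 for ligands, -0.38 for receptors and -0.011 for CRMP genes. The causes of these shifts were not tested, other than that the subtraction lowers every gene by construction.

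Leaving out each sample gave 1 to 3 members lower (beside 5.44% to 14.1% of all genes) and 6 to 12 higher (beside 3.47% to 13.4%). By class it gave 1 to 2 ligands lower, 2 to 4 receptors higher, 0 to 2 receptors lower and 1 to 4 CRMP genes higher, and of the other pathway genes 1 to 13 higher and 3 to 12 lower. At an adjusted p under 0.05 it gave 0 to 3 members higher and 0 to 1 lower, 0 to 1 ligands higher and 0 to 1 lower, 0 to 1 receptors higher, 0 to 1 CRMP genes higher and 0 to 3 other pathway genes lower. Of all genes, 0% to 1.05% were higher and 0% to 3.62% lower at that threshold. The medians ranged from 0.041 to 0.39 for ligands, 0.15 to 0.35 for receptors and 0.33 to 0.76 for CRMP genes.

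Same-numbered samples deviated from their group means with a mean r of -0.24 across genes, which are not independent replicates, and no pair was above 0.1, so the numbers were not taken to pair the samples. With the replicate number as a block, 7 members were higher and 1 lower, and 3 other pathway genes were higher and 3 lower. Of all genes, 4.16% were higher and 6.08% lower in that fit. The medians were 0.26 for ligands, 0.17 for receptors and 0.54 for CRMP genes.

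Members with small differences changed sign. In the 4 samples of the larger 7SL group the log2 fold change was -0.035 for Sema7a, -0.21 for Plxnc1, 0.089 for Sema3b, 0.21 for Sema3g and -0.40 for Dpysl4. Without PRATA replicate 2 it was -0.24 for Sema4c, -0.050 for Sema4a, -0.15 for Plxnb1, -0.0017 for Sema6b and -0.60 for Plxnb3, and without PRATA replicate 3 it was -0.02 for Plxnc1, 0.03 for Sema3g and -0.18 for Dpysl4. Without sham replicate 1 it was -0.044 for Plxnc1, 0.11 for Sema3g and -0.05 for Dpysl4, and without sham replicate 3 it was -0.020 for Sema7a, -0.0034 for Nrp2 and -0.10 for Sema6b. Plxnb3 was also at -0.26 with voom, -0.11 with the replicate block, -0.026 with the 7SL covariate and -0.24 without sham replicate 2. For the members that changed sign when a sample was left out, the highest value over those fits was 1.01 for Sema7a, 0.38 for Plxnc1, 0.70 for Sema4c, 0.71 for Sema4a, 0.46 for Dpysl4, 0.44 for Plxnb1, 0.23 for Nrp2 and 0.45 for Sema6b, and the lowest for Sema3g was -0.27.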
